A study of Mus musculus with 4 samples.

Results

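The amino acid transporter genes of cultured mouse lung fibroblasts were compared between a line of the genotype labelled KrasD12 and a wild-type (WT) line. Members were the array rows annotated with exactly 1 gene symbol of the Slc1a, Slc3a, Slc6a, Slc7a, Slc36a, Slc38a or Slc43a families, with the brightest row standing for each gene, which gave 62 of the 19938 genes tested. The symbols Slc6a20a and Slc6a20b, which carry a copy letter after the number, were included, and 2 rows of opposite-strand genes, Slc6a19os and Slc7a6os, were not. Slc38a12 had no such row and was not analysed here. Of the 62 members, 20 belong to Slc6a, 15 to Slc7a, 11 to Slc38a, 7 to Slc1a, 4 to Slc36a, 3 to Slc43a and 2 to Slc3a.

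The study examined RNA of 4 untreated samples on Affymetrix gene arrays. The KrasD12 group held samples A and B of line 493, and the WT group held samples A and B of line 494. The series text uses the name SKY for the KrasD12 cells and gives the age of the mice as 3 to 4 weeks. All cells grew out of collagenase-digested lung in medium with serum. The labels describe the purity of the cultures as myofibroblasts, judged by immunofluorescence. With 1 line per genotype, an effect of genotype cannot be told apart from a difference between the lines. Nothing in the labels says that A and B were separate cultures, so p-values measure only the spread between these samples, which may be technical. How the genotype was made is not given in the sources used here.

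Amino acids cross membranes through carriers of several unrelated families. Exchangers such as Slc1a5 and the light chains of Slc7a, which need a heavy chain of Slc3a to reach the surface, swap one amino acid for another. Sodium-coupled carriers such as Slc38a1 and Slc38a2 load the cell with small neutral amino acids. Other carriers, such as Slc36a1 and Slc38a9, are found on the lysosome, where amino acid supply is relayed to the growth kinase mTOR. When amino acids run short, the transcription factor ATF4 induces many of these genes through C/EBP-ATF response elements. Slc6a carriers move neurotransmitters, taurine, creatine and neutral amino acids with sodium and chloride.

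To show where such elements lie, the RefSeq promoter windows (build GRCm38.p6, 250 bases before to 50 after a start site) were searched on both strands for the element's core, TGATGNAA, which reads TTNCATCA on the other strand. Windows were found for 45 of the 62 members, among them 9 that rose and 7 that fell by the criteria given below. Members without a window were not searched, among them Slc1a5, Slc6a6, Slc6a8, Slc7a2, Slc7a5, Slc38a1 and Slc43a3. The core occurred in 4 of these 45 genes (8.89%), against 1219 of 27025 genes in the whole table (4.51%). Counted by windows of equal length, it lay in 5 of 66 member windows (7.58%) and in 3.97% of all windows. Each site is shown on the gene's strand with 16 bases on either side, and the capitals mark the core:
Slc7a11, chr3:50443656-50443695, minus strand: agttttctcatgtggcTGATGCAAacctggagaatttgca
Slc7a11, chr3:50443637-50443676, minus strand: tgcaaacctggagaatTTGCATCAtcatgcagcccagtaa
Slc1a4, chr11:20332694-20332733, minus strand: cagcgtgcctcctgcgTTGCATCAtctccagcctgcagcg
Slc7a7, chr14:54417922-54417961, minus strand: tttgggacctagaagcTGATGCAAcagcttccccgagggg
Slc7a7, chr14:54418062-54418101, minus strand: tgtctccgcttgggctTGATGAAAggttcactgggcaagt
Slc6a21, chr7:45282829-45282868, plus strand: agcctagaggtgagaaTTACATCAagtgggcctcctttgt

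The 2 Slc7a11 cores lie on opposite strands, with first bases at -66 and -47 from the start site. The Slc1a4 core begins at -4, the Slc6a21 core at -28, and the Slc7a7 cores at -1 and -141. The 4 genes did not share a direction by the criteria given next: Slc1a4 fell, Slc7a7 rose, Slc7a11 was not called, and Slc6a21 was called lower on 1 scaling. A match is a description of the letters and not evidence of binding.

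The values are deposited log2 values, and a difference is KrasD12 minus WT with limma's moderated SE after ± (n = 2 samples per group). The 4 columns do not share a scale. Their medians over all rows were 6.24 and 6.26 in KrasD12 and 5.90 and 5.91 in WT, and the median difference of all genes was 0.26. That shift was 0.39 for genes with means of 5 to 6, 0.07 for means of 9 to 10 and -0.15 for means of 11 to 12. Each difference is thus to be read against genes of like mean. A gene is therefore said to have risen or fallen only where limma called it in the same direction at an adjusted p under 0.05 both as deposited and once the columns had been quantile normalized. Group means under 5.15, the 95th percentile of olfactory and vomeronasal receptor rows, are called dim. A difference with a dim group may be compressed, but as deposited it also carries the shift between the columns. For all genes that shift was 0.29 at means of 3 to 4 and 0.39 at means of 4 to 5. A deposited rise with a dim group can thus be overstated, and its quantile difference is to be read beside it. In a culture, fewer cells expressing a gene and less RNA per cell cannot be told apart.

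Of 9 fibroblast markers, including Col1a1, Dcn and Pdgfra, all 9 lay above the dim level in both groups, and their summed deposited log2 level was 99.4 to 99.6 in KrasD12 and 100.9 in both WT samples, with 3 that fell and 1 that rose. The 6 smooth-muscle and myofibroblast markers summed to 45.6 to 46.2 in KrasD12 and 52.7 to 52.9 in WT, and 5 of the 6 fell. These were Acta2 (-1.67), Cnn1 (-1.65), Myh11 (-1.56), Tagln (-1.49) and Myl9 (-1.05). Des was called higher on the deposited values alone (0.53, quantile 0.13). Of 9 immune markers, 4 were dim in both groups, and the list summed to 45.4 to 46.0 in KrasD12 and 44.5 to 44.9 in WT. Of the immune list 2 genes fell and 1 rose: Lyz2 and Csf1r fell (-1.48 and -0.43) and Adgre1, dim in both groups, rose by 0.63, while Ptprc was dim in all samples. The 11 epithelial markers summed to 60.2 to 61.3 against 55.9 to 56.3. Of these, 6 lay above the dim level in both groups and 2, among them Epcam, were dim in both. Sftpc and Sftpb rose (0.92 and 0.70, quantile 0.52 and 0.32). The 7 endothelial markers summed to 36.4 to 36.8 against 34.3 to 35.2, with 0 called on both scalings. Of these, 3 lay above the dim level in both groups and 4, among them Pecam1 and Cdh5, were dim in both. The endothelial median difference was 0.31 as deposited and -0.10 on the quantile values, and the sums are of deposited values. The mesothelial list of 5 summed to 28.5 to 29.0 against 28.0, with 0 called on both scalings, and the neuronal and glial list of 7 to 38.2 to 38.7 against 37.7, with 2 that fell. Of the erythroid list only Alas2 had a row (5.46 and 5.70 against 4.69 and 4.6). The part of these markers in the transporter differences was not tested.

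Transporter genes moved in both directions. Of the 62 members, 13 rose (21.0%, against 22.4% of all genes called higher on both scalings) and 11 fell (17.7%, against 11.5% of all genes called lower on both). The share that rose was near the background. Among the 43 members whose mean lay above the dim level, 10 rose and 11 fell, which is 23.3% and 25.6%, against 24.5% and 15.1% of genes above that level. That mean is over the 4 samples, so a gene can pass through the group in which it is higher. Of the 32 members with both group means above the level, 7 rose and 10 fell. The share of all genes by that stricter rule was not counted. As deposited, whether or not also called after quantile normalization, 35 members were higher and 11 lower (all genes: 50.1% and 11.9%). After quantile normalization 13 were higher and 16 lower (all genes: 22.5% and 24.4%). The shares therefore depended on the scaling, and on the quantile values both lay near those of all genes. The median difference of the members was 0.32 as deposited and 0.0075 on the quantile values, against 0.26 and -0.00375 for all genes. Both counts rested on the number of arrays: without WT A or without WT B, 0 members were called by limma on the deposited values, although all 13 rises had an unadjusted p under 0.05 and 6 and 9 of the falls did. Without KrasD12 A 8 members rose and 5 fell, and without KrasD12 B 6 rose and 5 fell.

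**Figure D1:**
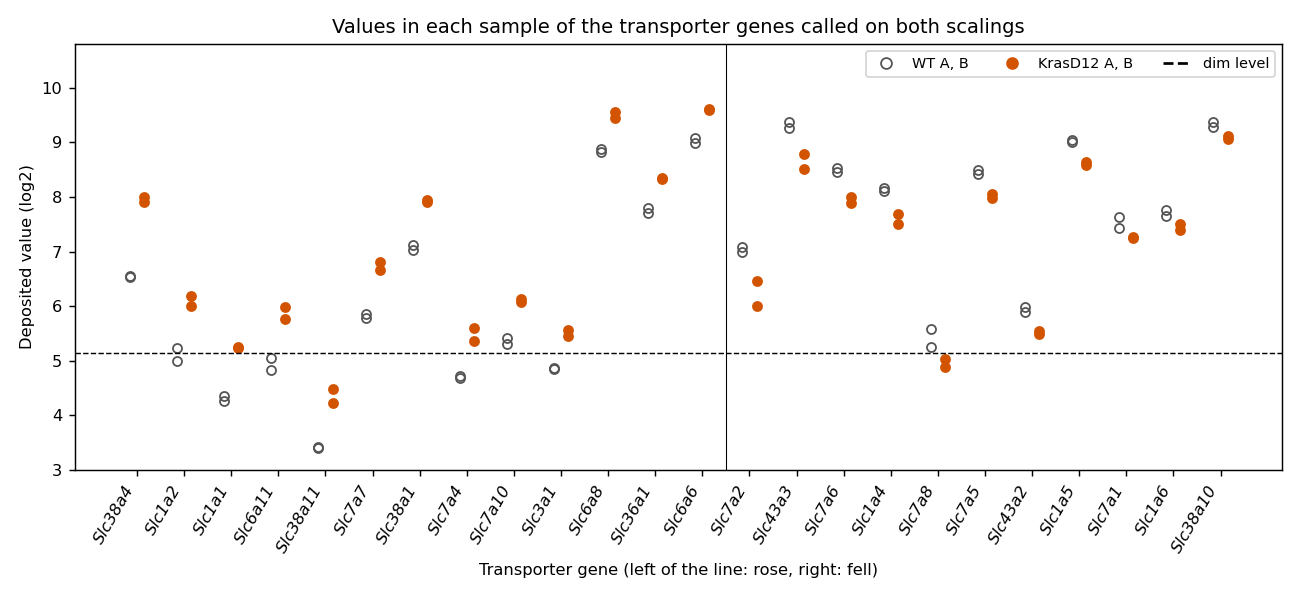
Deposited log2 values (vertical axis) of the 24 transporter genes called on both scalings, as 1 point per sample: open circles are WT A and B, filled circles KrasD12 A and B, and the dashed line is the dim level of 5.15. The 13 genes left of the line rose and the 11 right of it fell, the groups overlapped in none of the 24, and the WT mean of 6 of the rises lay under the dim level.

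The rises ran from 0.57 to 1.41 on the deposited values and from 0.26 to 1.16 on the quantile values. The falls ran from -0.81 to -0.24 and from -1.10 to -0.32. Slc38a4 was the only member at least 2-fold apart on both scalings (all genes: 1.23% higher and 1.28% lower by that rule). Over all 62 members, the KrasD12 values lay wholly above the WT values in 40 genes and wholly below in 14, and overlapped in 8, while of all genes 64.3% lay wholly above and 18.7% wholly below.

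**Figure D2:**
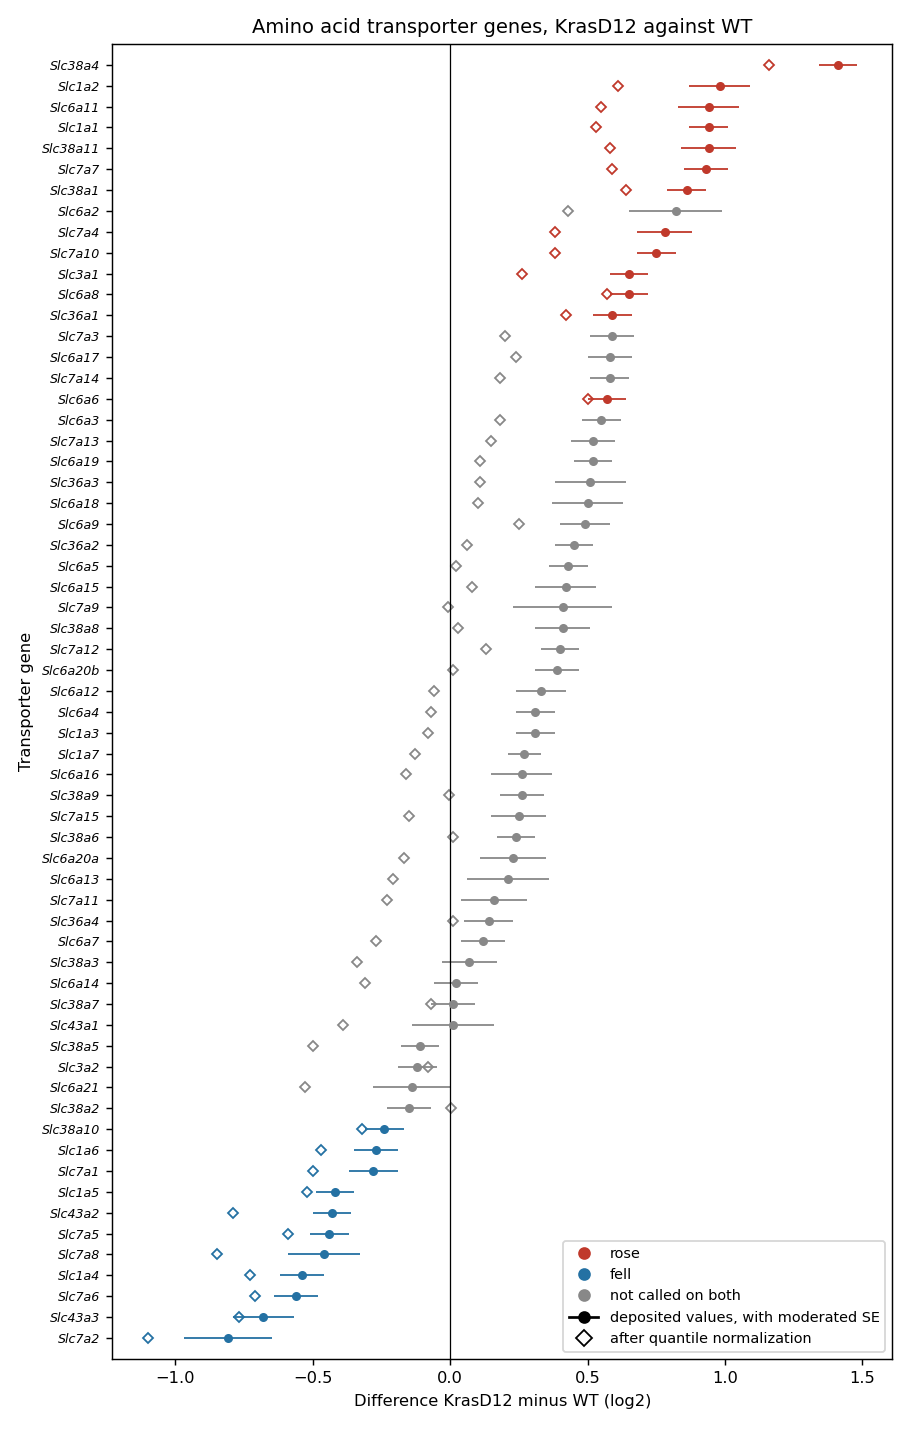
Difference KrasD12 minus WT (log2, horizontal axis) of all 62 transporter genes, ordered by the deposited difference. Filled circles are deposited values with limma's moderated SE and open diamonds are values after quantile normalization, red for the 13 genes that rose, blue for the 11 that fell and grey for the 38 not called on both. Most dim genes have their diamond to the left of their circle, and Slc38a4 (1.41) and Slc7a2 (-0.81) lie at the ends.

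The exchangers built from a heavy and a light chain moved in both directions: 3 of the 10 light chains fell and 2 rose, leaving 5 without a call shared by the scalings. Slc3a2, the heavy chain that brings most Slc7a light chains to the surface, read 10.32 and 10.39 in KrasD12 and 10.49 and 10.46 in WT. Its difference of -0.12 ± 0.07 (limma adjusted p = 0.176, quantile -0.08) was not called on either scaling, but Slc3a2 was called lower after median centring (-0.47, adjusted p = 0.00291) and, on the deposited values, with limma's trend option. Median centring takes the same amount off every gene of a column, whereas genes with means of 10 to 11 had a median deposited difference of -0.05. Slc7a5, the light chain that imports leucine and other large neutral amino acids in exchange for glutamine, read 7.98 and 8.06 against 8.49 and 8.42. Both KrasD12 values lay below both WT values, and Slc7a5 fell by 0.44 ± 0.07 (adjusted p = 0.00481, quantile difference -0.59).

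Slc7a6, which exchanges cationic for neutral amino acids, read 7.88 and 7.99 in KrasD12 and 8.53 and 8.46 in WT and fell by 0.56 ± 0.08 (adjusted p = 0.00266). The opposite-strand row Slc7a6os, a different gene, stood at a difference of 0.30. Slc7a7, of the same transport type, which exports arginine and lysine, went the other way. It read 6.67 and 6.81 against 5.78 and 5.85, with both groups above the dim level, and rose by 0.93 ± 0.08 (adjusted p = 0.000943, quantile 0.59). The 2 light chains of this transport type thus moved in opposite directions by the same test.

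Slc7a8, a light chain for large and small neutral amino acids, fell by 0.46 ± 0.13 (adjusted p = 0.0285, quantile -0.85) with dim values in KrasD12. Its difference was -0.29 without WT A. Slc7a10, which carries small neutral amino acids including D-serine, read 6.07 and 6.14 in KrasD12 and 5.41 and 5.31 in WT and rose by 0.75 ± 0.07 (adjusted p = 0.00126, quantile 0.38). The heavy chain Slc3a1, which in kidney pairs with Slc7a9 for cystine uptake, read 5.56 and 5.46 against a dim 4.85 and 4.87. Slc3a1 rose by 0.65 ± 0.07 (adjusted p = 0.00156), or 0.26 on the quantile values, where its adjusted p was 0.0403. With cyclic loess normalization it was not called (0.24, adjusted p = 0.0511), and with limma's trend option it was not called on both scalings.

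Slc7a11, the cystine-glutamate exchanger that feeds glutathione synthesis and whose promoter holds the pair of cores above, read 5.53 and 5.57 in KrasD12 and 5.24 and 5.55 in WT. The groups overlapped, and the difference of 0.16 ± 0.12 (adjusted p = 0.282) turned to -0.23 after quantile normalization, uncalled on both. Slc7a9 (0.41) and Slc7a15 (0.25) were not called on either scaling, and Slc7a12 (0.40) and Slc7a13 (0.52) were called on the deposited values alone, all 4 with dim means in both groups.

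Of the 5 cationic amino acid transporters of Slc7a, 2 fell and 1 rose. Slc7a2, which imports arginine, lysine and ornithine, had the largest fall of all members. It read 6.00 and 6.46 in KrasD12 and 6.99 and 7.08 in WT, so the KrasD12 samples differed more from each other than the WT samples but did not reach them. The difference was -0.81 ± 0.16 (adjusted p = 0.00808), or -1.10 on the quantile values. Slc7a1, the main cationic transporter of most cell types, read 7.27 and 7.25 against 7.63 and 7.44 and fell by 0.28 ± 0.09 (adjusted p = 0.0385, quantile -0.50), with -0.18 when WT A was left out. Slc7a4, a relative whose substrate is unsettled, read 5.37 and 5.60 against a dim 4.72 and 4.69 and rose by 0.78 ± 0.10 (adjusted p = 0.00205, quantile 0.38). Slc7a3 (0.59) and Slc7a14 (0.58) were called on the deposited values alone, with quantile differences of 0.20 and 0.18.

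Of the 7 Slc1a members, 3 fell and 2 rose, and both neutral amino acid exchangers were among those that fell. Slc1a5, the neutral amino acid exchanger known as a glutamine importer, read 8.59 and 8.64 in KrasD12 and 9.01 and 9.05 in WT and fell by 0.42 ± 0.07 (adjusted p = 0.00449, quantile -0.52). Its close relative Slc1a4, an exchanger of serine, alanine and cysteine, read 7.51 and 7.68 against 8.11 and 8.16 and fell by 0.54 ± 0.08 (adjusted p = 0.004, quantile -0.73). In both genes the KrasD12 samples lay below the WT samples.

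Among the 5 glutamate and aspartate transporters of Slc1a, 2 rose and 1 fell. Slc1a2, the main glutamate carrier of astrocytes, read 6.01 and 6.18 in KrasD12 and 5.0 and 5.24 in WT, where its mean was dim. It rose by 0.98 ± 0.11 (adjusted p = 0.00168, quantile 0.61). Slc1a1, the glutamate and cysteine carrier of neurons and epithelia, read 5.26 and 5.24 against a dim 4.27 and 4.35 and rose by 0.94 ± 0.07 (adjusted p = 0.000713, quantile 0.53). The KrasD12 levels of Slc1a1 were themselves close to the dim level. Slc1a6, a glutamate carrier of cerebellar neurons, showed a fall of 0.27 ± 0.08 (adjusted p = 0.0319, quantile -0.47) and values above the dim level in both groups. Slc1a3 (0.31) and Slc1a7 (0.27) were called on the deposited values, but turned to -0.08 and -0.13 after quantile normalization.

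Within the sodium-coupled neutral transporters of Slc38a, 3 of 11 rose and 1 fell. Slc38a4, an imprinted gene whose product imports small neutral amino acids and is best known from liver and placenta, was the most changed transporter. It read 8.0 and 7.91 in KrasD12 and 6.56 and 6.54 in WT, a gap far wider than the spread in either group. The rise was 1.41 ± 0.07 (2.65-fold, adjusted p = 0.000355) and 1.16 on the quantile values. Slc38a1, a carrier of the same transport type that takes up glutamine and alanine, read 7.94 and 7.91 against 7.12 and 7.02 and rose by 0.86 ± 0.07 (adjusted p = 0.000884, quantile 0.64). A second array row of Slc38a1 gave 7.28 and 7.21 against 6.11 and 6.04, a difference of 1.17.

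Slc38a2, the third carrier of this type, which is induced by ATF4 in amino acid shortage, did not join them. It read 11.39 and 11.53 in KrasD12 and 11.61 and 11.60 in WT (-0.15 ± 0.08, adjusted p = 0.153), with a quantile difference of 0.00375. Slc38a2 was called lower after median centring (-0.49, adjusted p = 0.00315) and, on the deposited values, with the trend option. Genes with means of 11 to 12 had a median deposited difference of -0.15, the same as Slc38a2. Slc38a1, Slc38a2 and Slc38a4 lie next to each other on mouse chromosome 15 with 0 protein-coding genes between them in GRCm38.p6, so the gene between those that rose was not called on either scaling.

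Slc38a11, a little studied member, read 4.23 and 4.49 in KrasD12 and 3.41 and 3.43 in WT and rose by 0.94 ± 0.10 (adjusted p = 0.00153, quantile 0.58). All 4 of its values were dim. Slc38a10 fell by 0.24 ± 0.07 (adjusted p = 0.0323, quantile -0.32) at values above 9 in all samples. Slc38a9, the arginine sensor of the lysosome, read 7.22 and 7.08 against 6.90 and 6.88 and was called on the deposited values alone (0.26 ± 0.08, adjusted p = 0.0322, quantile -0.00375). Its other row differed by 0.14. The glutamine carriers Slc38a3 (0.07) and Slc38a5 (-0.11) were not called on the deposited values and stood at -0.34 and -0.50 after quantile normalization, where both were called. Slc38a6 (0.24) and Slc38a8 (0.41) were called on the deposited values alone, and the lysosomal Slc38a7 (0.01) on neither scaling.

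Slc36a1, a proton-coupled exporter of small amino acids from the lysosome, read 8.32 and 8.35 in KrasD12 and 7.70 and 7.80 in WT. All KrasD12 values lay above the WT values, and Slc36a1 rose by 0.59 ± 0.07 (adjusted p = 0.00205, quantile 0.42). Its neighbours Slc36a2 (0.45) and Slc36a3 (0.51), adjacent on chromosome 11, were called on the deposited values alone, with quantile differences of 0.06 and 0.11. Slc36a4 (0.14) was not called on either scaling.

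In the Slc43a family, 2 of 3 members fell. Slc43a3, a carrier of purine nucleobases, read 8.51 and 8.78 in KrasD12 and 9.37 and 9.27 in WT and fell by 0.68 ± 0.11 (adjusted p = 0.00445, quantile -0.77). Slc43a2, a facilitated carrier of large neutral amino acids, fell by 0.43 ± 0.07 (adjusted p = 0.00495, quantile -0.79). Slc43a1, which has the same kind of substrates, was dim in both groups, which overlapped (0.01 ± 0.15, adjusted p = 0.98).

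The Slc6a family was the largest, and 3 of its 20 members rose while 0 fell. As deposited 14 of 20 were called higher (all genes: 50.1%), a count that includes the 3 that rose. On the quantile values 3 were higher and 3 lower (all genes: 22.5% and 24.4%). Slc6a8, the creatine transporter, read 9.44 and 9.55 in KrasD12 and 8.82 and 8.88 in WT and rose by 0.65 ± 0.07 (adjusted p = 0.00177, quantile 0.57). Slc6a6, the taurine transporter, read 9.61 and 9.60 against 8.99 and 9.08 and rose by 0.57 ± 0.07 (adjusted p = 0.00205, quantile 0.50). Both lay above the dim level in every sample. Slc6a11, a GABA transporter known from glia, read 5.77 and 5.99 against a dim 4.84 and 5.05 and rose by 0.94 ± 0.11 (adjusted p = 0.00197, quantile 0.55).

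The carriers of noradrenaline (Slc6a2, 0.82), dopamine (Slc6a3, 0.55) and serotonin (Slc6a4, 0.31) were called on the deposited values alone. For Slc6a2 the WT samples read 5.12 and 4.61, a wide spread for this series, and its quantile difference of 0.43 had an adjusted p of 0.0624. The betaine and GABA carrier Slc6a12 (0.33) was likewise called on the deposited values alone, and Slc6a13 (0.21) on neither. None of the 11 glycine, proline and other neutral amino acid carriers of Slc6a with an assigned role was called on both scalings. The glycine carriers Slc6a9 (0.49) and Slc6a5 (0.43), and Slc6a15 (0.42), Slc6a17 (0.58), Slc6a18 (0.50), Slc6a19 (0.52) and Slc6a20b (0.39), were called on the deposited values alone. Slc6a16 (0.26) and Slc6a20a (0.23) were called on neither. The proline carrier Slc6a7 (0.12), Slc6a14 (0.02) and Slc6a21 (-0.14) were called lower on the quantile values alone.

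Leaving out genes whose mean was dim removed Slc1a1, Slc7a4 and Slc38a11 from the genes tested. In all, 38 members were not called on both scalings. Of these, 22 were higher on the deposited values alone (0.24 to 0.82), 5 were lower on the quantile values alone (-0.53 to -0.27), and 11 were called on neither (deposited -0.15 to 0.41). Both group means were above the dim level in 32 of the 62 members and below it in 13, while 16 were above it in KrasD12 alone and 1 in WT alone. The same level served both groups although the columns do not share a scale, so this split cannot be told apart from the shift between them. The median difference of the 16 was 0.54 as deposited and 0.15 on the quantile values. Of the 16 above it in KrasD12 alone, 5 rose, and such members passed the level only through the group in which they were higher.

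**Figure D3:**
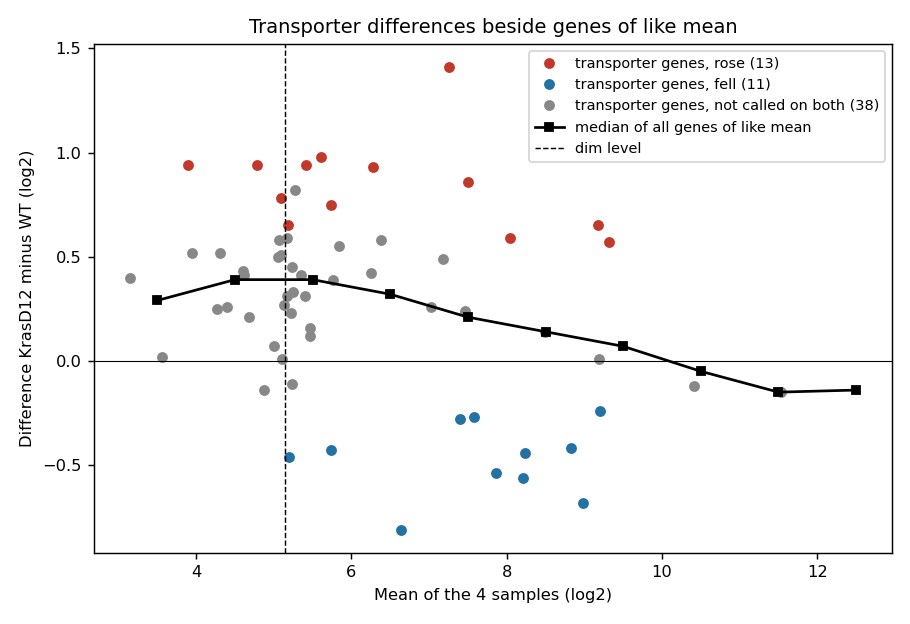
Difference KrasD12 minus WT (log2, vertical axis) against the mean of the 4 samples (log2, horizontal axis) for the 62 transporter genes, with the median difference of all genes per unit of mean as black squares and the dim level as a dashed line. The squares stand at 0.39 at means of 5 to 6, 0.07 at means of 9 to 10 and -0.15 at means of 11 to 12, and the 11 genes that fell lie below them.

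Genes that handle amino acids beside the transporters were read from lists. In the list of the ATF4 and amino acid deprivation response, 6 of 26 measured genes fell and 3 rose (median 0.09, quantile -0.09). The 26 include Eif2a (0.20, called on neither scaling), a different gene read in place of the listed Eif2s1. Eif2s1 itself had no row of 1 symbol. Psat1, which makes phosphoserine, read 7.10 and 7.14 in KrasD12 and 8.53 and 8.50 in WT (-1.40 ± 0.07, adjusted p = 0.000316). The folate enzyme gene Mthfd2 fell by 0.82 ± 0.14 (adjusted p = 0.00484). Sesn2, a leucine sensor, and Ddit4, an inhibitor of mTOR signalling, rose by 0.63 and 0.64 (adjusted p = 0.00204 and 0.00223). Atf4 itself, named after its value was seen, fell by 0.34 (adjusted p = 0.0131).

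Glutamine and glutamate enzymes had 6 of 15 falling and 1 rising (median -0.01, quantile -0.04). After Psat1, the largest falls were those of Ctps, which uses glutamine to make CTP (-0.84), of glutamine synthetase, Glul (-0.66), and of asparagine synthetase, Asns (-0.58). Of 19 genes of branched-chain amino acid breakdown, 3 fell and 1 rose (median -0.02, quantile -0.22). They were the propionyl-CoA carboxylase subunits Pcca (-0.77) and Pccb (-0.23), Hibch (-0.51), and Bckdha (0.52), a subunit of the branched-chain ketoacid dehydrogenase.

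Lysosomal amino acid sensing and mTORC1 genes had 12 of 34 rising and 3 falling (median 0.14, quantile -0.02). After median centring, which takes the same amount off genes of every mean, 3 of these 12 rises kept their call and 9 lost it. The deposited shift was 0.14 for genes with means of 8 to 9 and 0.07 for means of 9 to 10. After cyclic loess the 9 kept their call. Sesn2, the GATOR1 subunit gene Depdc5 and Sesn3 rose by 0.63, 0.59 and 0.58, and Rragb, a RAG GTPase, fell by 0.63. Among 19 arginine, proline and polyamine genes 3 rose and 3 fell (median 0.21, quantile -0.02). Nitric oxide synthase Nos1 rose by 1.04 and Arg2, an arginase dim in both groups, by 0.81, while ornithine aminotransferase, Oat, fell by 0.98 and Azin1 by 0.54. Arg2 had a quantile difference of 0.39.

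Cysteine, glutathione and taurine enzymes had 2 of 14 rising and 2 falling (median 0.09, quantile -0.11). Those that rose were the thiol dioxygenases Cdo1, which oxidises cysteine on the way to taurine, and Ado. Cdo1 read 9.69 and 9.62 in KrasD12 and 8.42 and 8.53 in WT (1.18 ± 0.08, adjusted p = 0.000563), and the taurine carrier Slc6a6 was also higher. In the same list Csad (0.15, quantile 0.01) and Gadl1 (0.49, quantile 0.08, dim in both groups) were not called on both scalings. Both are named after their values were seen, and a link to Slc6a6 was not tested. Those that fell were Gclc (-0.37), the first step of glutathione synthesis, and Gsr (-0.33), which reduces oxidised glutathione.

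Amino acid and peptide transporters of other families had 4 of 12 rising and 1 falling (median 0.35, quantile 0.04). The vesicular glutamate transporters did not share a direction. Slc17a6 read 4.85 and 4.94 against 3.65 and 3.37, dim in all samples, and rose (1.39 ± 0.11, adjusted p = 0.00081, quantile 1.01). Slc17a8, also dim in all samples, was the 1 that fell (-0.23, adjusted p = 0.0288, quantile -0.63). Slc17a7 was called on neither scaling (0.10, quantile -0.28). Slc17a7 and Slc17a8 are named here after their values were seen. Slc16a10, which lets aromatic amino acids out of the cell, rose by 1.03 (adjusted p = 0.000648), the lysosomal cystine exporter Ctns by 0.63 and Slc15a1, dim in both groups, by 0.74 (quantile 0.35). Of 7 transporter partners and regulators 4 rose and 0 fell (median 0.46, quantile 0.31). These were Rtn2 (0.89), the ubiquitin ligase Nedd4l (0.68), Laptm4b, which recruits the Slc7a5 and Slc3a2 pair to lysosomes (0.64), and the kinase Sgk1 (0.46). In the other lists, the rises that lost their call after median centring were Cebpb, Pfas, Bckdha, Sat1, Ado and Sgk1, 1 each in 6 lists, and 0 falls lost theirs. Cebpb, Pfas and Sat1 are named here after their values were seen. Across these lists the medians and counts are to be read against 22.4% of all genes rising, 11.5% falling and a median of 0.26. Among genes above the dim level 24.5% rose and 15.1% fell, with a median of 0.22. These are the nearer values for the ATF4, lysosomal sensing, glutamine and branched-chain lists, whose measured genes all lay above that level in both groups. For means of 7 to 8 and 8 to 9 the median of all genes was 0.21 and 0.14.

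**Figure D4:**
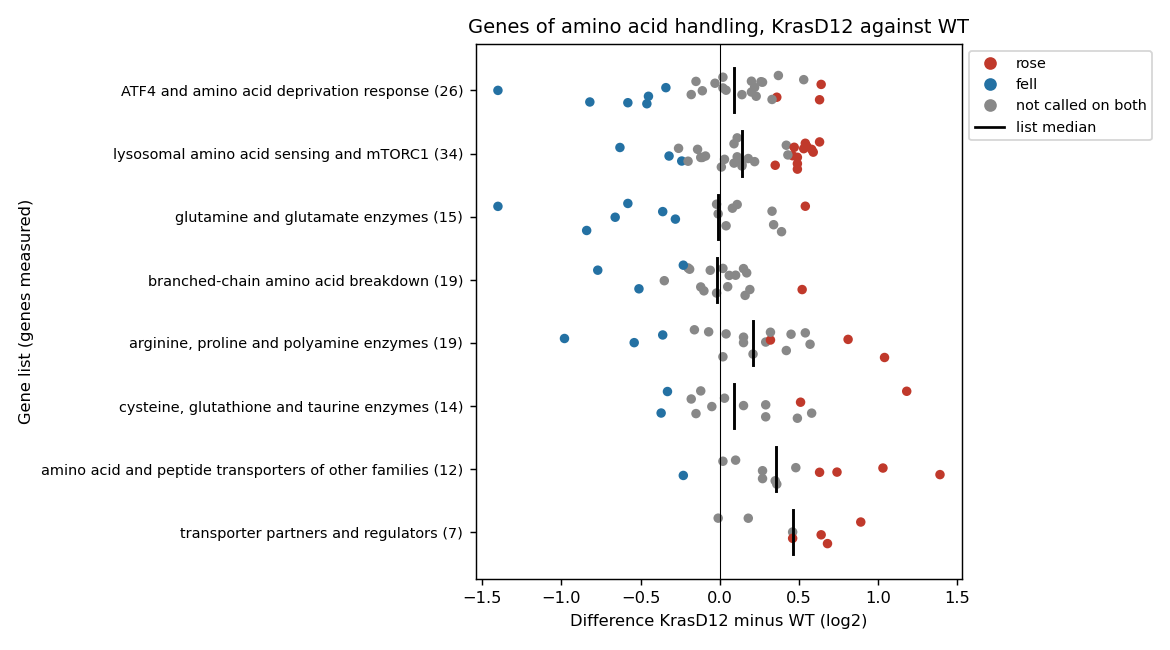
Difference KrasD12 minus WT (log2, horizontal axis) of each measured gene in 8 lists of amino acid handling, 1 point per gene, spread vertically at random within its list. Red marks genes that rose, blue those that fell and grey the rest, and black bars are list medians, from -0.02 for branched-chain amino acid breakdown to 0.46 for transporter partners and regulators.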

How the data were processed

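Per the labels, biotin-labelled total RNA of 2 KrasD12 and 2 WT fibroblast samples was hybridised to Affymetrix arrays. The authors deposited 1 log2 value per array row and sample, a unit read from the values. Per the submitters' processing notes the Transcriptome Analysis Console was used. Its version is not given, nor are the background correction and normalization, in the sources used here. Of 28944 rows, 21789 had exactly 1 symbol, 1621 several and 5534 none in the platform annotation. Symbols were updated by gene ID through RefSeq (GRCm38.p6), which matched 21698 rows. The highest-mean row stood for a gene.

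All 19938 genes were fitted with limma 3.58.1 in R 4.3.3 (lmFit, eBayes, group as the only term, two-sided) and adjusted by Benjamini-Hochberg. 4 arrays, with 2 residual degrees of freedom, limit the precision. The code was tested on simulated data. Plots and summaries were made with matplotlib 3.10.9, pandas 2.3.3 and Python 3.11.15. Alternatives were quantile, median and cyclic loess scaling, a filter on dim genes, averaging all rows of each gene, eBayes with the robust or trend option, a replicate block and each array left out. Members and lists were chosen with earlier results of these data known. Sample values are given for members called on both scalings with a difference of at least 0.5 in size and for 8 members needed for their role, and of each list up to 4 called genes with the largest differences are named.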

Additional observations from a re-analysis of the deposited data

How the results depend on the processing

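The counts depended on the scaling and on each WT array. Transporter genes higher numbered 35 on the deposited values, 13 after quantile normalization, 14 after median centring and 12 after cyclic loess. Those lower numbered 11, 16, 17 and 17. Their median difference of 0.32 became 0.0075, -0.03 and -0.000188. The sign turned in 21 of the 62 members under at least 1 other scaling, 0 of them among the 24 called on both scalings. After quantile normalization, median centring and cyclic loess alike it turned in 15: Slc1a3 (-0.08, -0.04, -0.10), Slc1a7 (-0.13, -0.08, -0.14), Slc6a4 (-0.07, -0.04, -0.10), Slc6a7 (-0.27, -0.23, -0.29), Slc6a12 (-0.06, -0.02, -0.09), Slc6a13 (-0.21, -0.14, -0.18), Slc6a14 (-0.31, -0.33, -0.30), Slc6a16 (-0.16, -0.09, -0.12), Slc6a20a (-0.17, -0.12, -0.19), Slc7a11 (-0.23, -0.19, -0.25), Slc7a15 (-0.15, -0.10, -0.11), Slc38a3 (-0.34, -0.28, -0.34), Slc38a7 (-0.07, -0.34, -0.06), Slc38a9 (-0.00375, -0.09, -0.02) and Slc43a1 (-0.39, -0.34, -0.40). In the other 6 it turned under 1 scaling: quantile in Slc7a9 (-0.00875) and Slc38a2 (0.00375), centring in Slc36a4 (-0.21) and Slc38a6 (-0.11), and loess in Slc6a20b (-0.000299) and Slc38a8 (-7.61e-05). The cause was not tested. With a 2-fold size on both scalings 1 member rose and 0 fell. Leaving out each array gave 0 to 18 members higher and 0 to 5 lower on the deposited values, and 0 to 8 rises and 0 to 5 falls on both scalings. The counts of 0 came without WT A or WT B, when limma called no member on the deposited values; all 13 rises then kept an unadjusted p under 0.05 and, after quantile normalization, 7 and 9 of the 13 rises and 8 and 9 of the 11 falls kept their call. No rise or fall changed sign with any array left out. With the replicate block (the letters A and B, whose deviations correlated at 0.0132 over genes and are not known to pair samples), 16 members rose on both scalings, among them all 13 of the rises, and 8 fell. Slc7a1, Slc7a8 and Slc38a10 lost their call. The filter on dim genes left 10 of the 13 rises, since Slc1a1, Slc7a4 and Slc38a11 were not tested, and eBayes with trend kept 12, without Slc3a1.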
